A study of Mus musculus with 12 samples.

Results

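The comparison described here is between BTBR mice injected with ASIV and BTBR mice injected with the DMSO solvent control (vehicle). It uses 6 of the 12 libraries of the study, 3 per group, made from total RNA of the medial prefrontal cortex (mPFC). All injections were intraperitoneal and went on for 7 days. The other 6 libraries come from C57 mice given the same ASIV (3) or the same DMSO (3), and they are used for the spread between libraries and for the values set beside those of BTBR. Of the 17283 genes with an expression value, 13586 entered the test because they reached at least 1 FPKM in 3 or more libraries. FPKM counts the sequenced fragments of a gene per kilobase of its length, relative to the depth of the library. The labels describe the mice as inbred and give no age, sex, dose or batch, and they do not say whether the 3 libraries of a group come from 3 mice. The p-values therefore measure the spread between these libraries, which may be partly technical.

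ASIV is astragaloside IV, a saponin of Astragalus root that has been studied for effects on inflammation, oxidative stress and mitochondria. BTBR is an inbred strain used as a mouse model of autism because of its low sociability and repetitive grooming, and C57 is the usual reference strain. The mPFC is a cortical area that takes part in social behaviour and decisions, and its tissue holds excitatory neurons of the upper and deep layers, inhibitory interneurons, glia and vessel cells. The study asked whether ASIV improves neurotransmission in BTBR mice, and its title names Camk2n2, an inhibitor of the calcium/calmodulin-dependent kinase CaMKII.

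The depth behind the values was 16166327 to 18660039 fragments per library over all 12. Markers of cortical neurons were present in the libraries, with 14 of 14 upper layer and 19 of 19 deep layer markers passing the minimum, beside 3 of 12 markers of choroid plexus and 7 of 14 of blood cells. The 3 BTBR vehicle libraries stood apart from the other 9 on the first principal component (54% of the variance), at 36.9 to 47.8 against -4.13 to 2.25 for BTBR ASIV and -23.7 to -13.8 for C57. Their mean variance per gene was 0.0642 on the log2 scale, against 0.05 in BTBR ASIV and 0.0226 in C57 vehicle. The 6 genes Pttg1, Cort, Amd2, Myoc, Eno1b and Rpl29 differ widely between the strains and were chosen after their values were seen. The choice required that the 6 BTBR and the 6 C57 libraries did not overlap. Pttg1 was 0.912, 0.439 and 0.588 FPKM in BTBR vehicle, 0.326, 0.221 and 0.324 in BTBR ASIV and 9.43, 8.79 and 10.7 in C57 vehicle. Rpl29, a ribosomal protein gene, was 6.53, 3.48 and 5.99 FPKM in BTBR vehicle and 2.7, 2.85 and 77.7 in BTBR ASIV. It was 90.9, 87.2 and 103 in C57 vehicle, so that the third BTBR ASIV library alone was near the C57 level. Without that library 3071 genes were called in the comparison below, against 3954 with it. Leaving out either of the other BTBR ASIV libraries instead gave 3243 or 3144 calls. The lower count was thus not particular to the library with the high Rpl29 value. Leaving out 1 BTBR vehicle library gave 3330 to 3871 calls.

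After ASIV, 1864 of the 13586 genes tested in BTBR mPFC were higher (13.7%) and 2090 were lower (15.4%). Together these are 3954 genes, or 29.1%, called by limma at a Benjamini-Hochberg adjusted p under 0.05. The counts of every list below stand beside these shares of all genes, 13.7% higher and 15.4% lower. The BTBR ASIV and BTBR vehicle libraries did not overlap for 5310 genes (39.1%), and 3770 genes were both called and not overlapping. Most differences were small: the median absolute log2 difference of the called genes was 0.51, and 764 higher and 687 lower genes changed by at least 1.5-fold of FPKM + 1. At 2-fold or more there were 207 higher and 75 lower genes, and 184 of the 207 are nuclear genes. All log2 differences below are on the scale of log2(FPKM + 1), with the standard error of the fit, and understate the change of genes of low FPKM. With each library rescaled over its nuclear genes alone, a choice made after seeing the data, 3056 genes were higher and 1103 lower, so that 73.5% of the calls were higher instead of 47.1%, and the median of all genes moved from -0.01 to 0.14. With mitochondrial genes left out of the scale, a planned choice, 2165 genes were higher and 1763 lower, and the median was 0.03. The other planned scalings (TPM, median ratio and quantile) gave 1807 to 1950 higher and 1878 to 2047 lower. The nuclear scale, given beside many lists below, is thus the scaling that moved the calls most. A small difference in either direction is therefore relative to the scale. The fold sizes of 1.5 and above named below are several times the shift to 0.14. With the spread estimated from the 6 BTBR libraries alone, which also leaves fewer libraries for it, 2258 genes were called (1111 higher and 1147 lower). With a spread per group 2766 were called. The mean variance was larger in BTBR than in C57. The spread shared over all 12 libraries therefore tends to make the standard errors and p-values given for BTBR too small.

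**Figure D1:**
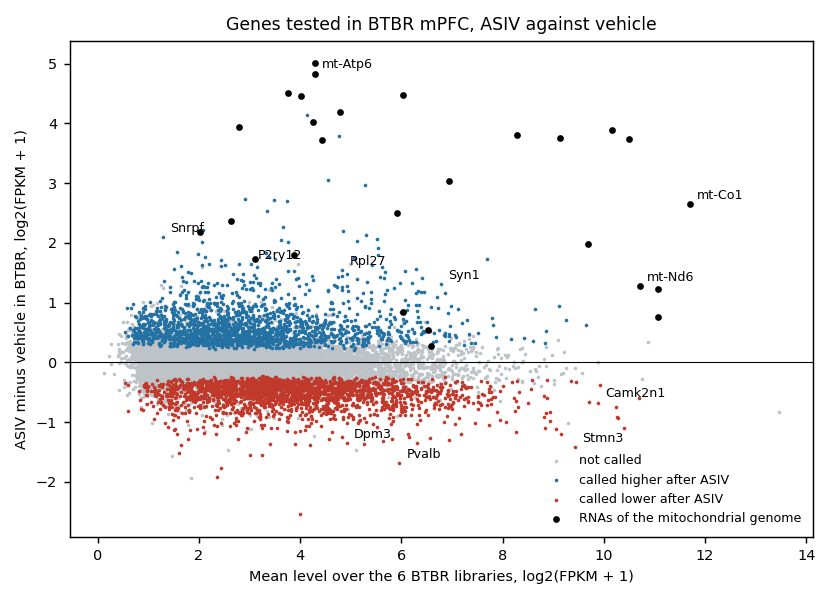
Each point is 1 of the 13586 genes tested; the horizontal axis is the mean level over the 6 BTBR libraries and the vertical axis the difference of ASIV from vehicle in BTBR, both in log2(FPKM + 1). Blue points were called higher, red points called lower, grey points not called, and black points are RNAs of the mitochondrial genome, which reach the largest differences, with mt-Atp6 at 4.84 and mt-Nd6 at 1.28.

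The nuclear protein-coding genes that rose with the smallest p, 9 of which are described, included genes of the synapse, of membrane traffic and of lipid and energy metabolism. Syn1 (synapsin I, a phosphoprotein of synaptic vesicles, chromosome X, 20860511 to 20921004 in mm10) was 72.7, 65.8 and 68 FPKM in the vehicle libraries and 181, 182 and 154 after ASIV. The groups lay far apart, and the log2 difference was 1.31 ± 0.11 (adjusted p = 2.75e-05). Srr, the serine racemase that makes the NMDA receptor co-agonist D-serine (chromosome 11, 74906359 to 74925948), was 3.56, 3.3 and 2.86 FPKM in vehicle and 7.84, 8.78 and 8.73 after ASIV (1.16 ± 0.09, adjusted p = 2.37e-05). All 3 treated libraries were more than 2 times the highest vehicle library for this gene. Prrt1, a protein associated with AMPA receptors, was 20.3, 17.3 and 24.6 FPKM in vehicle and 56.3, 54.8 and 55.5 after ASIV (1.39 ± 0.13). Its 3 treated libraries lay close together.

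Praf2, a small membrane protein of the early secretory pathway, was 6.69, 4.33 and 4.85 FPKM in vehicle and 19.4, 19.9 and 19.5 after ASIV, a difference of 1.73 ± 0.14. Yif1b, which takes part in transport between endoplasmic reticulum and Golgi, stood at 1.35 ± 0.11, and Dad1, a subunit of the oligosaccharyltransferase that adds sugar chains to proteins, at 1.23 ± 0.10. Each had all treated libraries above all vehicle libraries. Agpat1, an enzyme of phospholipid synthesis, rose by 1.29 ± 0.12, from 15.4 ± 2.16 FPKM (SD, n = 3) to 38.9 ± 1.74. Atp5g2, a membrane subunit of the mitochondrial ATP synthase (chromosome 15, 102662864 to 102672352), had the largest difference of these, with 4.72, 1.99 and 3.43 FPKM in vehicle and 25.2, 22.6 and 23 after ASIV (2.54 ± 0.22, adjusted p = 4.22e-05). Its vehicle libraries were all under 5 FPKM and its treated libraries all above 22. Nr1d1, a repressor of the circadian clock (1.31 ± 0.11), is described with the clock genes.

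The 10 genes that fell with the smallest p were spread over calcium binding, microtubules, RNA processing and protein modification. Stmn3, a neuronal stathmin that destabilises microtubules (chromosome 2, 181306459 to 181314500), was 977, 1388 and 1041 FPKM in vehicle and 419, 455 and 388 after ASIV, a difference of -1.42 ± 0.14 (adjusted p = 5.9e-05). Every vehicle library was more than 2 times every treated library. Cabp1, a neuronal calcium-binding protein related to calmodulin (chromosome 5, 115168689 to 115194381), was 116, 122 and 143 FPKM in vehicle and 52.5, 51 and 42.9 after ASIV (-1.36 ± 0.11, adjusted p = 2.75e-05). Its groups were far apart too. Msrb2, a mitochondrial methionine sulfoxide reductase that repairs oxidised proteins (chromosome 2, 19371440 to 19394976), was 26.5, 24.5 and 24.5 FPKM in vehicle and 10.7, 12.1 and 11.9 after ASIV (-1.06 ± 0.08). It had the smallest p of the lowered genes (adjusted p = 1.4e-05).

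Atp5e, the epsilon subunit of the ATP synthase, went the other way from Atp5g2, with 175, 190.2 and 216 FPKM in vehicle and 73.7, 74.4 and 85.4 after ASIV (-1.30 ± 0.13). Dpm3, a subunit of the enzyme that makes dolichol phosphate mannose for glycosylation, fell from 47.5 ± 3.08 FPKM to 18 ± 0.905 (SD, n = 3), a difference of -1.35 ± 0.11. Phf5a and Sart1, both splicing factors, stood at -1.39 ± 0.12 and -0.95 ± 0.09. Dohh, the hydroxylase that completes hypusine on the translation factor eIF5A, stood at -1.254 ± 0.12, and Coprs, a histone-binding cofactor of an arginine methyltransferase, at -0.85 ± 0.08. Mrfap1, a small nuclear protein, was among the more abundant, with 463 ± 55.7 FPKM in vehicle and 205 ± 15.5 after ASIV (-1.17 ± 0.11). None of the 19 genes had an overlap between the groups, which the rule that named them required.

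**Figure D2:**
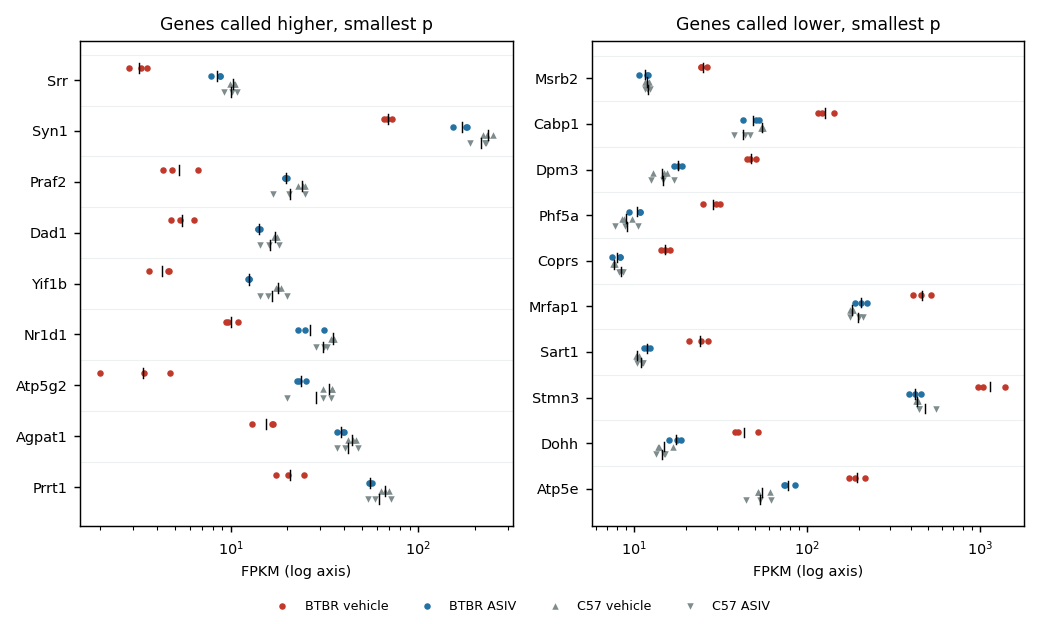
FPKM on a log axis in each of the 12 libraries for 9 genes called higher (left) and 10 called lower (right) with the smallest p; points are libraries, coloured by group, and short bars are group means. The 3 BTBR vehicle libraries lie to 1 side of the other 9 libraries for each gene, as for Syn1 (BTBR vehicle 68.8 ± 3.48, BTBR ASIV 172 ± 15.9, C57 vehicle 235 ± 15 FPKM).

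In these 19 genes the treated BTBR level lay nearer to that of C57 vehicle than the vehicle BTBR level did. For Syn1 the mean was 172 ± 15.9 FPKM in BTBR ASIV and 235 ± 15 in C57 vehicle, and for Stmn3 it was 421 ± 33.9 and 433 ± 8.09 (SD, n = 3). BTBR vehicle is the control of the one comparison and the strain group of the other, so these levels are given side by side only. In C57 mice ASIV gave 0 calls (0%) with limma, with 417 genes at an unadjusted p under 0.05. There were 0 calls with voom on recovered fragments or with the spread per group, and 1 call without the first C57 ASIV library. The main fit shares its spread with BTBR, where the mean variance was larger (0.0642 and 0.05, against 0.0226 and 0.0376 in C57 vehicle and ASIV). A fit of the C57 libraries alone was not run, so 0 calls do not show that C57 did not respond. The difference of the ASIV response between the strains, tested as an interaction, was called for 1939 genes (14.3%), among them all 19 of these genes. The 19 were picked by their difference in BTBR, which is a part of the interaction, so their count is not separate evidence of a strain difference. Syn1 stood at -0.13 ± 0.11 in C57 and its response differed between the strains by 1.44 ± 0.15 (adjusted p = 0.000515), and Stmn3 stood at 0.14 ± 0.14 with a difference of -1.56 ± 0.19 (adjusted p = 0.001).

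All 13 mitochondrially encoded mRNAs, templates for central subunits of respiratory complexes I, III and IV and of the ATP synthase, rose after ASIV (100% of 13), with a median log2 difference of 3.72. As a share of the library they made up 0.640, 0.342 and 0.387% of fragments in the vehicle libraries and 3.11, 3.03 and 3.23% in the treated ones. The groups are several-fold apart, and the lowest treated library is above the highest vehicle library. mt-Co1, the catalytic subunit of complex IV (mitochondrial genome, 5328 to 6872), was 2133, 975 and 1104 FPKM in vehicle and 8136, 8252 and 8524 after ASIV (2.65 ± 0.24, adjusted p = 4.69e-05). mt-Cytb, which encodes cytochrome b in complex III, was 465, 197 and 278 FPKM in vehicle and 4408, 4173 and 4582 after ASIV (3.89 ± 0.27). The first vehicle library was the highest of its group for both, and still far below the treated libraries.

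The size of the rise differed along the mitochondrial genome. mt-Nd1 (3.73 ± 0.28), mt-Nd2 (3.75 ± 0.22) and mt-Nd4 (3.80 ± 0.27) of complex I were close to mt-Cytb, while mt-Nd5 was 439, 404 and 389 FPKM in vehicle and 1644, 1501 and 1761 after ASIV (1.99 ± 0.15). mt-Nd6, the mRNA transcribed from the other strand, had the smallest difference, with 1483, 924 and 917 FPKM in vehicle and 2427, 2438 and 3038 after ASIV (1.28 ± 0.18). No library of either group overlapped for any of the 13. The short or overlapping genes mt-Atp6 (4.84 ± 0.54), mt-Atp8 (2.19 ± 0.45), mt-Nd4l (3.94 ± 0.85), mt-Nd3 (2.36 ± 0.26), mt-Co2 (2.50 ± 0.31) and mt-Co3 (3.72 ± 0.41) are less certain. How fragments shared with a neighbour or with nuclear copies were counted is not given in the sources used here, and the call of mt-Nd4l was lost with voom. In the vehicle libraries mt-Nd4l rests on 3, 3 and 6 fragments and mt-Atp8 on 1, 2 and 8. Of 12 mitochondrial transfer RNAs tested, 10 rose, with differences from 0.28 to 5.01 over the 12. Both ribosomal RNAs rose, by 0.77 and 1.24, and their joint share was 0.516, 0.271 and 0.441% in vehicle and 0.611, 0.797 and 0.900% after ASIV. The rise thus differed by class, with a median of 3.72 for the mRNAs beside 0.77 and 1.24 for the ribosomal RNAs. Whether mitochondria held more RNA or the samples held more mitochondria was not tested. In the lists below, fewer cells of a type and less RNA per cell cannot be told apart in bulk tissue.

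**Figure D3:**
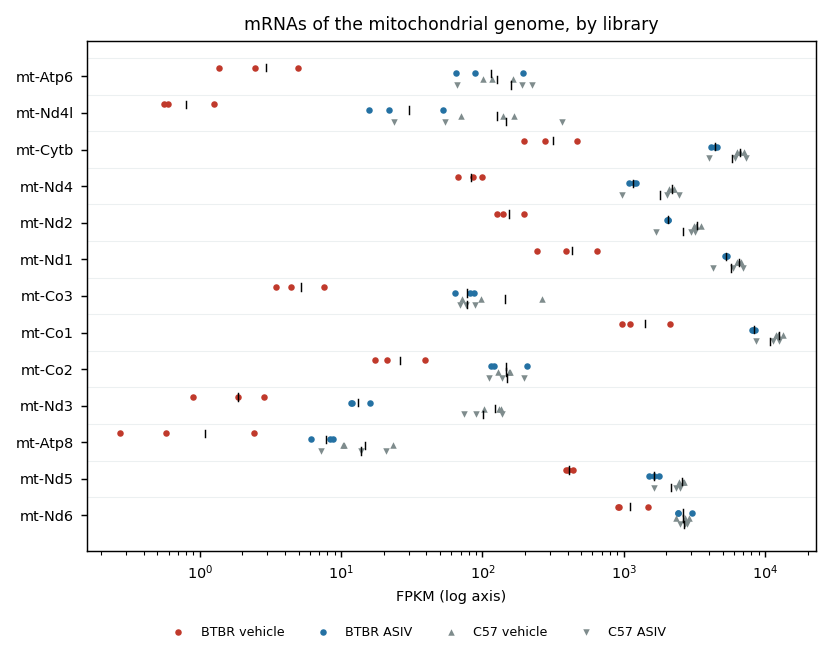
FPKM on a log axis of the 13 mRNAs of the mitochondrial genome in each of the 12 libraries, ordered by the size of the difference in BTBR; points are libraries and short bars group means. The BTBR vehicle libraries are the lowest for every gene, and the BTBR ASIV libraries lie above them without overlap, as for mt-Nd5 (411 ± 25.8 and 1635 ± 131 FPKM).

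Nuclear genes make the proteins that transcribe and stabilise mitochondrial RNA. Of 27 such factors tested 1 was higher (3.7%, beside 13.7% of all genes) and 4 lower (14.8%, beside 15.4%), with a median of -0.05. Lrpprc, which stabilises mitochondrial mRNAs, was 10.9, 15.1 and 12.8 FPKM in vehicle and 7.75, 7.77 and 8.23 after ASIV (-0.63 ± 0.11), and Tfam, which packages mitochondrial DNA and starts its transcription, was 8.97, 12.8 and 10.1 and 6.35, 6.56 and 7.2 (-0.58 ± 0.12). Esrra, a nuclear receptor that drives mitochondrial genes, stood at -0.50 ± 0.09. All treated libraries were below all vehicle libraries for these 3 genes. The higher one was Mtpap (0.40 ± 0.11), the mitochondrial poly(A) polymerase, and no factor was called higher without the third vehicle, second treated or the third treated library or with the 6 BTBR libraries only.

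Of 77 proteins of the mitochondrial ribosome 17 were higher and 16 lower, with a median of -0.02, but 28 were higher and 8 lower (median 0.13) over nuclear genes alone. Mrpl42 rose from 0.945 ± 0.257 to 4.21 ± 0.368 FPKM (SD, n = 3; 1.43 ± 0.17), Mrps36 stood at 1.33 ± 0.20 and Mrps11 at 1.27 ± 0.13, while Mrpl52 (-0.97 ± 0.14) and Mrpl34 (-0.89 ± 0.14) were the lowest, the last pair named after their values were seen. Of 31 genes of the TCA cycle and of pyruvate entry 6 rose and 6 fell (12 higher and 3 lower over nuclear genes alone, where the median was 0.17). Mpc2 of the mitochondrial pyruvate carrier fell (-0.74 ± 0.11) and its partner Mpc1 rose (0.50 ± 0.12). Of the succinate dehydrogenase subunits Sdhc fell (-0.70 ± 0.12), and Sdha, the catalytic one, was among the steadiest abundant genes. Of 22 glycolysis genes 3 rose and 4 fell (6 higher and 1 lower over nuclear genes alone). Aldoc, the aldolase of astrocytes, went from 223, 144 and 182 to 279.5, 267 and 291 FPKM (0.63 ± 0.13), Gpi1 stood at 0.41 ± 0.10, and Pfkm, a phosphofructokinase, at -0.55 ± 0.10. Leaving out the second vehicle library or any 1 treated library left 2 of the 4 lower glycolysis calls.

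Antioxidant genes were called in both directions, 8 of 27 higher (29.6%, beside 13.7% of all genes) and 5 lower (18.5%, beside 15.4%). The median was 0.09, and over nuclear genes alone 12 were higher and 3 lower. Nfe2l2, the regulator NRF2, was 2.18, 1.36 and 1.5 FPKM in vehicle and 3.37, 3.74 and 3.99 after ASIV (0.82 ± 0.12), and its target Nqo1 was 1.245, 0.829 and 0.518 and 2.55, 1.67 and 1.92 (0.72 ± 0.18). Both were low in all libraries and did not overlap. Gsta4, a glutathione transferase that clears lipid aldehydes, fell from 52.1 ± 6.48 to 26.8 ± 3.85 FPKM (SD, n = 3; -0.94 ± 0.12). The higher calls were 4 without the third vehicle or the third treated library and 5 without the second vehicle library. The lower calls were 3 without the third vehicle, first treated or second treated library.

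Camk2n2, the gene in the title of the study, did not pass the test. It was 188, 176 and 302 FPKM in vehicle and 144, 148 and 168 after ASIV (chromosome 16, 20619215 to 20621287). All treated libraries were below all vehicle libraries, and the third vehicle library stood well above the other two. The log2 difference was -0.49 ± 0.18 (adjusted p = 0.0529), and the exact two-sided permutation test gave p = 0.1, the smallest that 3 against 3 libraries allow. Without the third vehicle library it was -0.25 (adjusted p = 0.172), and over nuclear genes alone it was -0.34 (adjusted p = 0.157). It passed the threshold without the first vehicle library (-0.59, adjusted p = 0.0425), without the second (-0.64, adjusted p = 0.0213) and without the first C57 ASIV library (adjusted p = 0.0497). In C57 the level was 154, 162 and 174 FPKM in vehicle and 151, 116 and 117 after ASIV, and the response did not pass the test of a difference between the strains (-0.14 ± 0.25, adjusted p = 0.763).

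Its paralog Camk2n1, the more abundant CaMKII inhibitor, fell. It was 1128, 1079 and 1413 FPKM in vehicle and 668, 834 and 762 after ASIV, without overlap (-0.67 ± 0.14, adjusted p = 0.00365), and its response did not pass the test between the strains (adjusted p = 0.295). Camk2a, the alpha subunit of the kinase, rose, with 407, 341 and 415 FPKM in vehicle and 531, 553 and 583 after ASIV (0.52 ± 0.12, adjusted p = 0.00543). In C57 it was 602, 577 and 656 and 484, 502 and 399 FPKM, a difference of -0.41 ± 0.12, and the strains differed in the response by 0.93 ± 0.16 (adjusted p = 0.00457). Camk2b, the beta subunit, stood at -0.01 ± 0.10 with overlapping groups. Over the list of 14 kinases, inhibitors and relatives 3 rose and 2 fell (1 lower without the first treated library, 5 higher and 1 lower over nuclear genes alone). Camk1g, a membrane-bound CaM kinase, was 5.87, 4.65 and 4.8 FPKM in vehicle and 9.46, 13.4 and 8.76 after ASIV (0.90 ± 0.14). Itpr3, a calcium release channel at a known BTBR background locus, was 0.996, 0.684 and 1.04 FPKM in vehicle and 0.996, 0.903 and 0.98 after ASIV (0.04 ± 0.13, adjusted p = 0.819), with overlapping groups.

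Of 22 calmodulin genes, calcium buffers and calcineurin subunits 4 rose (18.2%, beside 13.7% of all genes) and 5 fell (22.7%, beside 15.4%), with a median of -0.01. Pcp4, a calmodulin-binding peptide of deep layer neurons (chromosome 16, 96467606 to 96525793), was 4.42, 5.13 and 3.44 FPKM in vehicle and 16.1, 18.8 and 18.6 after ASIV (1.83 ± 0.21, adjusted p = 0.00015). Pvalb, the calcium buffer of fast-spiking interneurons (chromosome 15, 78191114 to 78206400), went the other way, from 145, 114 and 80.8 FPKM to 38.7, 33.6 and 29.1 (-1.69 ± 0.21, adjusted p = 0.000228). Every treated library was more than 3 times every vehicle library for Pcp4, and below every vehicle library for Pvalb. Nrgn, the postsynaptic calmodulin-binding protein neurogranin, fell (-0.93 ± 0.14), and so did Calm3, 1 of the calmodulin genes (-0.75 ± 0.11). The 4 higher calls of this list became 1 without the second treated library and 2 without the third vehicle library.

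Of 46 potassium channel genes 7 rose and 6 fell, shares close to the 13.7 and 15.4% of all genes (12 higher and 5 lower over nuclear genes alone). Kcnip4, an auxiliary protein of A-type channels, stood at 0.96 ± 0.12 (3.87, 4 and 3.97 FPKM in vehicle, 8.39, 10.1 and 7.54 after ASIV), Kcnmb4 at 0.91 ± 0.17 and Kcna3 at 0.88 ± 0.21. All 3 had treated libraries above vehicle libraries without overlap. Of 30 sodium, calcium and pacemaker channel genes 6 rose and 2 fell, with a median of 0.10 (10 higher and 1 lower over nuclear genes alone). Without the second vehicle library 9 were higher and the median was 0.26, without the third vehicle library it was 0.03, and the lower calls were 1 in 7 of the 12 fits that leave out 1 library. Hcn2, a pacemaker channel, rose from 55.5, 38.8 and 59 to 81.6, 72.9 and 78.6 FPKM (0.62 ± 0.13), and stood at -0.47 ± 0.13 in C57, with a difference between the strains (adjusted p = 0.00445). Scn3b, an auxiliary sodium channel subunit, stood at 0.64 ± 0.16.

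Of 30 neuropeptide genes and their processing partners 4 rose and 5 fell, shares close to those of all genes, and those called include abundant peptides of interneurons. Sst, the somatostatin of a class of dendrite-targeting interneurons, was 746, 760.1 and 843 FPKM in vehicle and 426, 402 and 277 after ASIV (-1.11 ± 0.17, adjusted p = 0.000699). Npy, neuropeptide Y, was 50.5, 27.3 and 35.1 FPKM in vehicle and 86.8, 98.1 and 80 after ASIV (1.248 ± 0.22, adjusted p = 0.00148). Both sets of libraries were fully separated, in opposite directions, and both responses differed from those in C57 (adjusted p = 0.00353 and 0.0144). Cck, cholecystokinin, fell (-1.09 ± 0.21), and Pcsk1n, an inhibitor of prohormone processing, stood at -1.10 ± 0.22, with 1 vehicle library (1683, 1545 and 2975 FPKM) well above the others. The granins Chgb (-0.76 ± 0.12) and Chga (-0.59 ± 0.15) fell as well. Without the second treated library 2 members of the list were higher.

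Synaptic adhesion genes had 8 of 37 higher (21.6%, beside 13.7% of all genes) and 0 lower, and a median of 0.19 (15 higher and 0 lower over nuclear genes alone, median 0.37). Lrrtm1, a postsynaptic partner of neurexins, was 7.11, 7.35 and 5.79 FPKM in vehicle and 11, 14.2 and 12.6 after ASIV (0.81 ± 0.13). Lrrtm2 stood at 0.70 ± 0.13 and Cadm3, a cell adhesion molecule of synapses, at 0.70 ± 0.11, and Cntnap2, a neurexin relative linked to autism, rose by 0.52 ± 0.13. The groups did not overlap for these 4 genes. The count of higher genes was 17 without the second vehicle library, 5 without the first vehicle or second treated library and 4 without the third treated library. Without the first vehicle library 1 member was lower, and the median ranged from 0.12 to 0.36 over the fits that leave out 1 library. Of 14 clustered protocadherins 2 rose and 1 fell (3 lower without the first vehicle library, 4 higher and 1 lower over nuclear genes alone), led by Pcdhgc3 at 1.27 ± 0.14; exons shared within the cluster make single members uncertain. Of 48 axon guidance genes 4 rose and 4 fell (6 higher and 1 lower over nuclear genes alone), with Efna3, an ephrin, at 0.91 ± 0.11 and Unc5b, a netrin receptor, at -0.69 ± 0.14. The lower calls were 1 or 2 without any 1 of 9 libraries (each of C57, the second vehicle one and the second or the third treated one), and without the second vehicle library 7 were higher.

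Among 25 stathmins, tubulins and related proteins of the neuronal cytoskeleton 7 rose and 5 fell (11 higher and 4 lower over nuclear genes alone). Besides Stmn3, Stmn1 fell from 348, 410.5 and 383 FPKM to 248, 200.4 and 138 (-0.99 ± 0.18), and Nefh, the heavy neurofilament, stood at -0.80 ± 0.12. Tuba1a, the alpha tubulin of young neurons, rose from 94.5, 90.5 and 53.8 FPKM to 166, 199 and 160.5 (1.16 ± 0.20), and Dcx, doublecortin, stood at 0.76 ± 0.19. The groups did not overlap for Stmn1 and Tuba1a, but Tuba1a shares much of its sequence with other alpha tubulin genes. The higher calls fell to 4 when the third vehicle library, or either of the first 2 treated or C57 vehicle libraries, was left out.

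**Figure D4:**
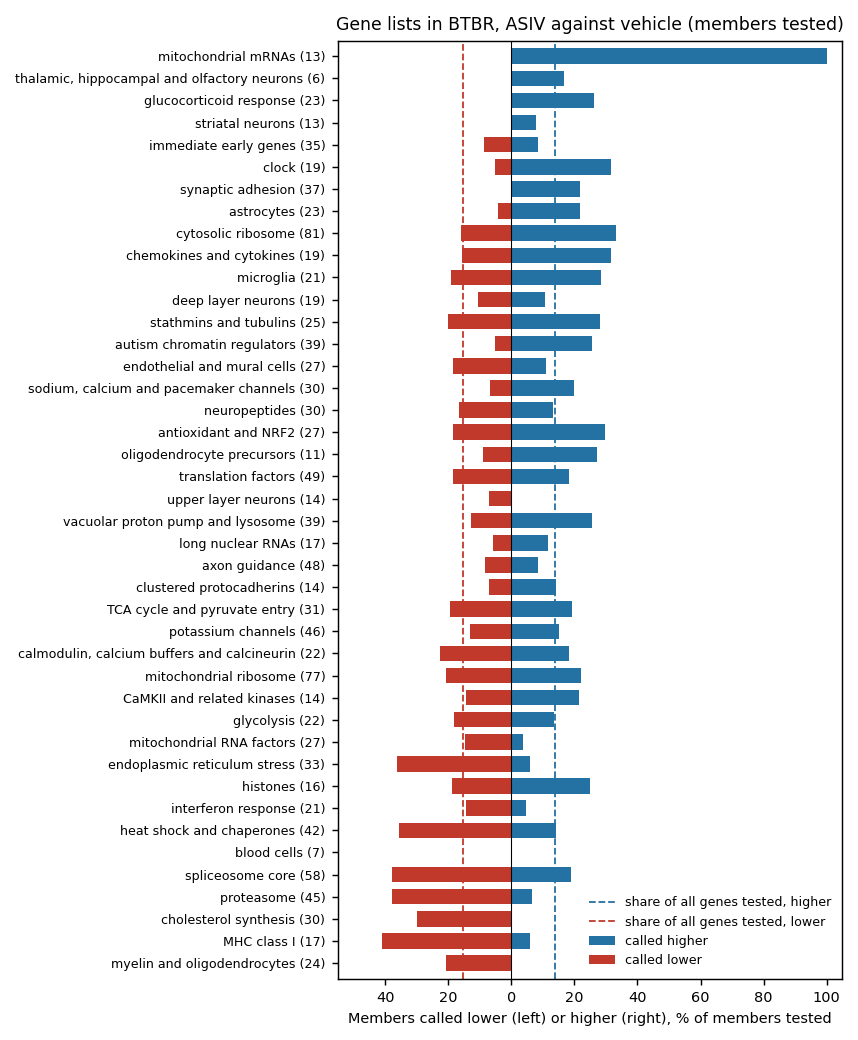
Share of tested members called higher (blue, right) and lower (red, left) after ASIV in BTBR for the 42 gene lists with at least 5 members tested, in % of the members tested (number in brackets), ordered by median difference. Dashed lines mark the shares of all 13586 genes, 13.7% higher and 15.4% lower; mitochondrial mRNAs reach 100% higher, and proteasome, spliceosome, chaperone, endoplasmic reticulum and MHC class I lists lie furthest to the lower side.

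Ribosomal protein genes changed in both directions. Of 81 cytosolic ribosomal proteins tested 27 rose (33.3%, beside 13.7% of all genes) and 13 fell (16.0%, beside 15.4%), with a median of 0.16. Rpl27, a protein of the large subunit, was 17.9, 12.9 and 16.5 FPKM in vehicle and 50.9, 44.9 and 47 after ASIV (1.54 ± 0.15, adjusted p = 6.92e-05). Every treated library was more than 2 times every vehicle library. The lowest, named after their values were seen, were Rps3a1 (-0.99 ± 0.12) and Rps12 (-0.80 ± 0.17). These genes have many processed pseudogenes with nearly the same sequence, and how such fragments were shared is not given in the sources used here, so single members are uncertain. Processed pseudogenes themselves were called higher in 99 of 501 (19.8%) and lower in 74 (14.8%). Of 49 translation factors 9 rose and 9 fell (17 higher and 6 lower over nuclear genes alone, median 0.23). Subunits of eIF3 were on both sides, Eif3d at 0.72 ± 0.11 and Eif3a at -0.72 ± 0.09; 4 were higher without the first or the third treated library.

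Spliceosome proteins were more often lower than higher, 22 of 58 (37.9%, beside 15.4% of all genes) against 11 (19.0%, beside 13.7%). The median was -0.14, but over nuclear genes alone 17 were higher and 15 lower and the median was 0.01. Phf5a, a part of the SF3b complex, was 25.2, 31.3 and 29.7 FPKM in vehicle and 9.35, 10.8 and 10.9 after ASIV (-1.39 ± 0.12), and Snrpe, a core Sm protein, stood at -1.37 ± 0.25. Snrpf, another core Sm protein, was 0.193, 0.136 and 0.215 FPKM in vehicle and 3.53, 5.97 and 3.08 after ASIV (2.10 ± 0.19). Its vehicle values rest on 3, 2 and 3 fragments and its treated values on 56, 93 and 49, so that the size of the difference is poorly set, and it too has similar copies in the genome.

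Of 45 proteasome genes tested 17 fell (37.8%, beside 15.4% of all genes), 3 rose, and the median was -0.17. With scaling over nuclear genes these counts were 15 and 8, with a median of -0.03. Psmd13, a lid subunit, was 30.9, 40.7 and 33.5 FPKM in vehicle and 17.3, 17.6 and 17.8 after ASIV (-0.95 ± 0.11, adjusted p = 0.000125), and Psmg3, an assembly chaperone, was 4.93, 6.15 and 4.47 and 2.48, 1.81 and 1.51 (-1.08 ± 0.14). The immunoproteasome subunits Psmb10 (-0.88 ± 0.11) and Psmb8 (-0.45 ± 0.15) fell too. Psmb2, a core subunit, was the exception by size, rising from 9.55, 7.15 and 6.58 FPKM to 25.1, 23.5 and 23.1 (1.52 ± 0.15). Its treated libraries were all above 20 FPKM and its vehicle libraries all below 10.

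Cytosolic chaperones had 15 of 42 lower (35.7%, beside 15.4% of all genes) and 6 higher (14.3%, beside 13.7%). The median was -0.13, and the direction turned to 5 lower and 10 higher (median 0.02) over nuclear genes. Of the chaperonin that folds actin and tubulin Cct6a (-0.64 ± 0.16), Cct8 (-0.60 ± 0.14) and Cct7 (-0.41 ± 0.11) fell, as did Hsp90aa1 (-0.63 ± 0.20), the inducible HSP90. Ppia, cyclophilin A, rose from 28.9, 24.1 and 19.8 FPKM to 104, 101 and 59.9 (1.79 ± 0.21), though it has many pseudogenes, and Dnajb1, a heat shock cochaperone, rose from 8.4, 9.37 and 12.1 to 16.3, 22.8 and 15.4 (0.80 ± 0.15). Cryab, a small heat shock protein, stood at 0.84 ± 0.25 and lost its call without the second or the third vehicle library or the first or the third treated one. Without the second vehicle library or the first treated library 8 members were lower.

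Chaperones of the endoplasmic reticulum and its stress response had 12 of 33 lower (36.4%, beside 15.4% of all genes) and 2 higher (6.06%, beside 13.7%). The median was -0.06, and over nuclear genes 6 were lower and 7 higher (median 0.09). Hspa5, the chaperone BiP, was 68.5, 79.6 and 65 FPKM in vehicle and 37.4, 60.6 and 46.6 after ASIV (-0.57 ± 0.16, adjusted p = 0.0192). The second treated library was close to the lowest vehicle library. Creld2, a stress-induced chaperone, fell from 15.1 ± 1.85 to 9.43 ± 0.574 FPKM (SD, n = 3; -0.62 ± 0.10), and Phgdh, the first enzyme of serine synthesis, stood at -0.74 ± 0.15. The lower calls were 7 without the second vehicle library and 5 without the first treated library, and the call of Hspa5 was lost without either of them or without the third treated library. Of 39 genes of the vacuolar proton pump and lysosome 10 rose (25.6%, beside 13.7% of all genes) and 5 fell (12.8%, beside 15.4%). Over nuclear genes alone 14 were higher and 2 lower. Atp6v1g2, a neuronal subunit of the pump, was 55.5, 43.3 and 40.6 FPKM in vehicle and 124, 117 and 110.3 after ASIV (1.33 ± 0.16), Atp6v0c of its membrane ring stood at 1.40 ± 0.22, and Laptm4a, a lysosomal membrane protein, at 1.15 ± 0.14. The lower calls of that list were 2 without the first or the third treated library and 3 without the second vehicle library.

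Of 30 cholesterol synthesis genes 9 were lower (30.0%, beside 15.4% of all genes) and 0 higher, with a median of -0.19 in BTBR and 0.02 in C57. With scaling over nuclear genes 6 were lower and 0 higher, and the median was -0.05. Hmgcs1, the synthase at the entry of the pathway (chromosome 13, 119690379 to 119708260), was 66.8, 71.1 and 40.9 FPKM in vehicle and 28.4, 41.8 and 26.3 after ASIV (-0.86 ± 0.20, adjusted p = 0.00706). Its groups overlapped, because the third vehicle library was as low as the second treated one. Pmvk, the phosphomevalonate kinase, was 40, 37.5 and 38.1 FPKM in vehicle and 19.5, 20.1 and 20.2 after ASIV (-0.92 ± 0.11, adjusted p = 0.000164), with wide separation. Stard4, a cholesterol carrier, was 9.11, 10.1 and 6.43 and 4.61, 4.52 and 3.77 FPKM (-0.83 ± 0.13), and Msmo1 (-0.66 ± 0.15), Idi1 (-0.66 ± 0.17), Cyp51 (-0.54 ± 0.16) and Fdft1 (-0.52 ± 0.12), enzymes along the pathway, fell as well. Apoe, the lipid carrier of astrocytes, fell (-0.60 ± 0.16).

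Oligodendrocytes make much of the cholesterol of the brain, and their markers are given beside these genes. Of 24 myelin and oligodendrocyte markers 5 were called lower and 0 higher (median -0.34; 2 lower over nuclear genes alone), with summed levels of 1027 to 2092 FPKM in vehicle and 849 to 1457 after ASIV. These ranges overlap, and the share of the marker change in that of the cholesterol genes was not tested. Mog, a myelin surface protein, was 75.5, 37.9 and 58.1 FPKM in vehicle and 36.9, 16.3 and 32.3 after ASIV (-1.0 ± 0.32, adjusted p = 0.0387), and Qdpr, an enzyme enriched in these cells, was 136, 84.9 and 93.4 and 70.7, 50.8 and 66 (-0.72 ± 0.19). The second library was the lowest of its group for both genes, in vehicle and after ASIV. The count became 1 without the second treated library, 2 without the first or the third vehicle library and 3 without the third treated library. Mog lost its call in those 4 fits and in 2 others, without the first C57 vehicle or the first C57 ASIV library. Qdpr lost it without the second treated library. Without the first vehicle library 1 marker was higher, and the median was -0.08 without that library or without the second treated one. Of 11 markers of oligodendrocyte precursors 3 rose and 1 fell, with Lhfpl3 at 1.26 ± 0.13 and Cspg5 at -0.67 ± 0.17.

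Astrocyte markers had 5 of 23 higher (21.7%, beside 13.7% of all genes) and 1 lower (4.35%, beside 15.4%). Their median was 0.18, with summed levels of 3037 to 3868 FPKM in vehicle and 3755 to 4196 after ASIV. Atp1b2, a sodium pump subunit, rose from 62.1, 42.8 and 44.9 FPKM to 96, 99.9 and 93.7 (0.96 ± 0.12), and Cst3, cystatin C, from 801, 604 and 549 to 960.2, 899.5 and 1121 (0.62 ± 0.14), while Aldh1l1, a defining astrocyte enzyme, fell (-0.61 ± 0.12). The summed levels overlapped between the groups. For 8 of the 23 single markers the groups did not overlap, beside 5310 of the 13586 genes tested (39.1%). Of 21 microglial markers 6 were higher (28.6%, beside 13.7% of all genes) and 4 lower (19.05%, beside 15.4%). Over nuclear genes alone 7 were higher and 2 lower. P2ry12, the purinergic receptor of surveying microglia (chromosome 3, 59216272 to 59262871), was 5.19, 3.29 and 2.65 FPKM in vehicle and 11.9, 13.5 and 14.9 after ASIV (1.65 ± 0.16, adjusted p = 5.9e-05), and Cd68, a lysosomal protein of phagocytes, was 0.923, 0.512 and 0.984 and 3.93, 4.04 and 5.68 (1.61 ± 0.15). Both were low in all vehicle libraries and several-fold higher in all treated ones. Trem2 (-0.65 ± 0.09), C1qc (-0.48 ± 0.14) and Aif1 (-0.76 ± 0.12), which mark the same cells, fell, and the summed level of the list was 359 to 421 FPKM in vehicle and 359 to 454 after ASIV. Without the third vehicle, first treated or second treated library 2 microglial markers were lower.

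Vessel cell markers had 3 of 27 higher and 5 lower (9 higher and 3 lower over nuclear genes alone). Ly6c1, a surface protein of endothelium, rose from 15.9, 7.54 and 9.37 FPKM to 26, 28.3 and 36.9 (1.44 ± 0.22), and Cldn5, the tight junction protein of the blood-brain barrier, fell from 104, 80.4 and 80.8 to 39.2, 55.4 and 55.9 (-0.81 ± 0.15), as did the endothelial receptor Tie1 (-0.58 ± 0.13). The higher calls were 7 without the first vehicle library, 5 without the first treated library and 1 without the third treated library. Of 7 blood cell genes and 3 choroid plexus genes none was called, and without the second vehicle library 1 blood cell gene was lower. Hbb-bt, a beta globin, was 13.3, 8.16 and 27.5 FPKM in vehicle and 4.25, 11.1 and 7.46 after ASIV (-0.93 ± 0.40, adjusted p = 0.103), and Aqp1, a choroid plexus water channel, was 0.21, 0.223 and 0.141 and 0.0207, 1.05 and 0.556 (adjusted p = 0.513).

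The libraries differed within each group in markers of striatal neurons, a neighbouring region. Adora2a, the adenosine receptor of striatal projection neurons, was 12.4, 15.2 and 1.88 FPKM in vehicle and 13.8, 1.62 and 30.1 after ASIV, and Drd2, a dopamine receptor of the same cells, was 7.75, 10.5 and 1.53 and 9.63, 0.651 and 18.9. The third vehicle and the second treated library were the low ones for both genes, and the third treated library the highest. In C57 Adora2a was 1.16, 2.48 and 11.3 FPKM in vehicle and 1.42, 1.39 and 12.1 after ASIV, with the third library of each group the highest. Summed over 13 tested markers the list ran from 102 to 317 FPKM in vehicle, from 85.6 to 555 after ASIV and from 98.3 to 335 over the C57 libraries. With 1 member called higher (Foxp1, 0.47 ± 0.13), the median was 0.42, and it was 1.19 without the second treated library and -0.25 without the third treated library. The part of this difference between libraries in the results of single genes was not tested. Markers of thalamus, hippocampus and olfactory areas had 1 of 6 called, Wfs1 (1.0 ± 0.20), which some cortical neurons also express. Upper layer markers had 0 of 14 higher and 1 lower (Rspo1, -0.56 ± 0.15), and deep layer markers 2 of 19 higher and 2 lower, with Pcp4 (1.83 ± 0.21) and Syt6 (0.72 ± 0.18) up and Rprm (-0.72 ± 0.22) and Tbr1 (-0.47 ± 0.15) down. Foxp1 lost its call without the third vehicle or the third treated library, Rspo1 without the third treated one, and Rprm without the third vehicle, second treated or the third treated one. The lower deep layer calls, Tbr1 included, were 0 in those 3 fits and 1 without the first vehicle library. Over nuclear genes alone upper layer markers had 3 higher and 0 lower and deep layer markers 4 and 0.

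Of 23 genes that respond to glucocorticoids 6 were higher (26.1%, beside 13.7% of all genes) and 0 lower (beside 15.4%). The median was 0.45 in BTBR and 0.01 in C57 (11 higher and 0 lower over nuclear genes alone). Without the second vehicle library 1 was lower. The largest differences were in the metallothioneins, small proteins that bind zinc and copper and are induced by metals, glucocorticoids and oxidative stress. Mt2 (chromosome 8, 94172664 to 94173568) was 1.5, 0.597 and 3.47 FPKM in vehicle and 5.91, 4.98 and 12.2 after ASIV (1.64 ± 0.37, adjusted p = 0.0078), without overlap. Its neighbour Mt1 (chromosome 8, 94179082 to 94180327) was 113, 51.8 and 125 FPKM in vehicle and 182, 114 and 256 after ASIV (0.95 ± 0.32, adjusted p = 0.0474), and its second treated library lay between the first and the third vehicle libraries. The call of Mt1 was lost in 9 of the 12 fits that leave out 1 library, so that of the pair Mt2 is the better separated.

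The upstream sequences of this pair are shown because both genes were called. Metal response elements near their starts are how these genes are known to be switched on. Each run is the 250 bases before the RefSeq start on the gene's strand (GRCm38.p6, plus strand), at chr8:94172368-94172617 for Mt2 and chr8:94178839-94179088 for Mt1. Capitals mark the core of the metal response element, TGCGCNC or TGCACNC, on either strand.
Mt2: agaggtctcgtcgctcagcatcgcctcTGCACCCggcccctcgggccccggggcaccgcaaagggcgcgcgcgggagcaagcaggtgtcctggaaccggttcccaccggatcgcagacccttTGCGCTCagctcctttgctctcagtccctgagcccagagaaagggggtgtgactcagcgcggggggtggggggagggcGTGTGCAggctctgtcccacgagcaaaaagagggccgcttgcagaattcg
Mt1: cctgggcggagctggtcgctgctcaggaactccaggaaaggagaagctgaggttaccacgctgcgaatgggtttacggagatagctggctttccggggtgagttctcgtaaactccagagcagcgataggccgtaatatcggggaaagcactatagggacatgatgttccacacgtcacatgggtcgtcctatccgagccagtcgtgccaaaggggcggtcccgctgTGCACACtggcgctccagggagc
Within these windows the core was found 3 times before Mt2 and 1 time before Mt1. It was present in 21.4% of 32851 RefSeq windows of the same length. Sequence outside the windows was not searched, and they depend on the annotated start, so the counts are not totals for either gene. The letters are those of the reference genome, not of BTBR mice, and a match is a description only.

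Of the other glucocorticoid-responsive genes, Pdk4, a kinase that limits pyruvate use, was 4.74, 4.45 and 3.77 FPKM in vehicle and 7.26, 5.19 and 12.2 after ASIV (0.73 ± 0.21), and Errfi1 (0.72 ± 0.13), Bcl6 (0.59 ± 0.10) and Nr3c2, the mineralocorticoid receptor (0.46 ± 0.14), rose. The third treated library was the highest for Mt1, Mt2 and Pdk4. Fkbp5 (-0.02 ± 0.27), Sgk1 (0.02 ± 0.35) and Tsc22d3 (-0.23 ± 0.17), which are commonly read as targets of the same receptor, did not pass the test. The call of Pdk4 was lost without the third vehicle or the third treated library. The number of higher genes was 11 without the third vehicle library and 4 without the third treated library.

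Clock genes had 6 of 19 higher (31.6%, beside 13.7% of all genes) and 1 lower (5.26%, beside 15.4%). The median was 0.21 in BTBR and 0.02 in C57 (9 higher and 0 lower over nuclear genes alone). The lower calls were 2 without the third vehicle library and 0 without the first or the second treated one. Nr1d1, the repressor REV-ERB alpha (chromosome 11, 98767932 to 98775333), was 10.9, 9.38 and 9.63 FPKM in vehicle and 31.4, 25 and 22.8 after ASIV (1.31 ± 0.11, adjusted p = 3.1e-05). The groups were more than 2-fold apart, and the response differed from that in C57 by 1.48 ± 0.16 (adjusted p = 0.000525). Nr1d1 lies on the opposite strand to the thyroid hormone receptor gene Thra and overlaps its end, and whether counting used the strand is not given. Its close relative Nr1d2 was the lower one, at -0.25 ± 0.08. Npas2 (0.72 ± 0.12) and Hlf (0.62 ± 0.11) rose, Nfil3 was 2.02, 2.14 and 1.59 FPKM in vehicle and 2.81, 6.43 and 2.88 after ASIV (0.72 ± 0.21), and Dbp, whose rhythm is among the strongest, stood at -0.11 ± 0.24 with overlapping groups. The call of Nfil3 was lost without the third vehicle library. The E-box CACGTG, to which the clock activators bind, was searched in the 250 bases before each RefSeq start. It was found in 1 of 5 windows of higher clock genes and in 5 of 18 windows of the others, beside 6.02% of all windows. By gene, where any window counts, these are 1 of 5 and 4 of 12. The time of day at which tissue was taken is not in the labels.

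**Figure D5:**
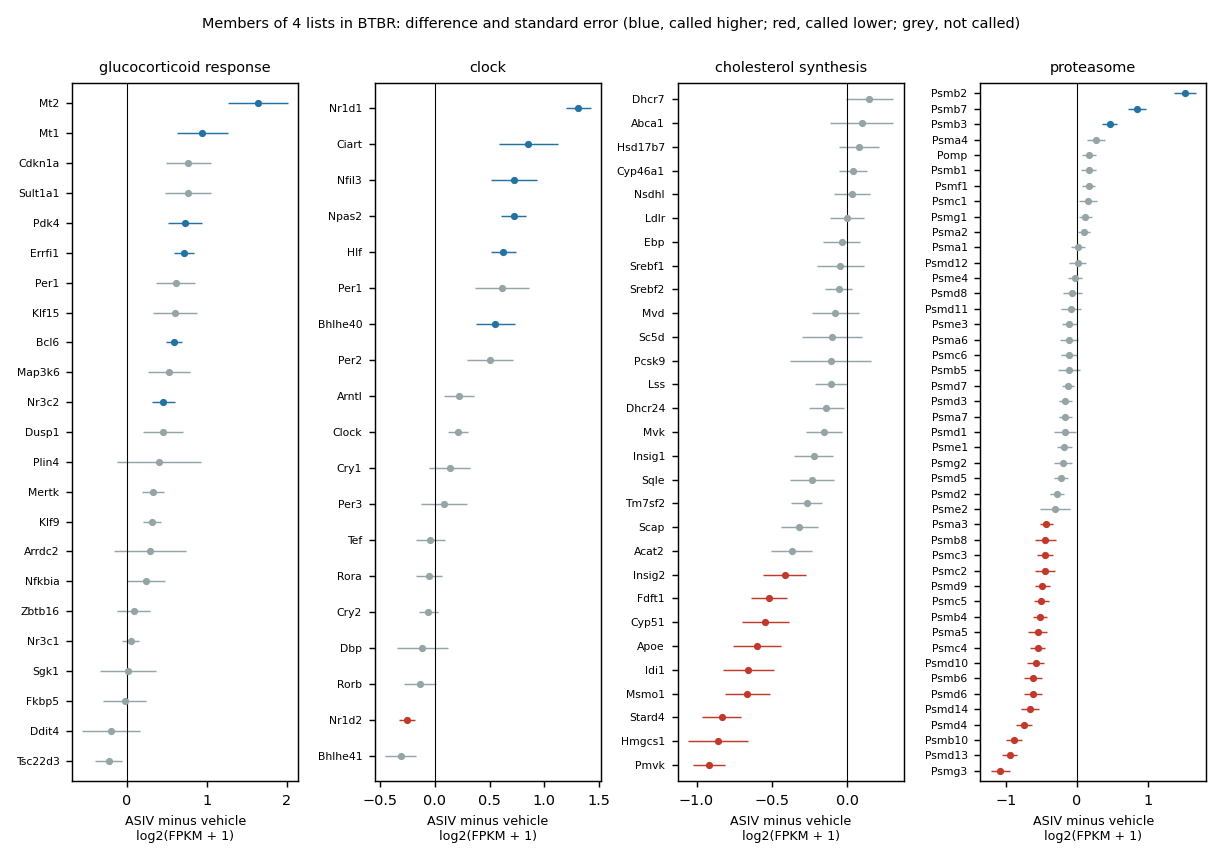
Difference of ASIV from vehicle in BTBR on the log2(FPKM + 1) scale for tested members of 4 lists (glucocorticoid response, clock, cholesterol synthesis, proteasome); points are estimates and bars standard errors, blue called higher, red called lower, grey not called. Mt2 (1.64), Nr1d1 (1.31), Pmvk (-0.92) and Psmg3 (-1.08) stand at the ends of their lists, and in the proteasome list Psmb2 (1.52) stands opposite to most members.

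Immediate early genes, which neurons switch on within minutes of activity, had 3 of 35 higher and 3 lower (median 0.24; 6 higher and 3 lower over nuclear genes alone), shares under those of all genes. Ier5 was 82.2, 84.2 and 94.4 FPKM in vehicle and 32.4, 50.5 and 26 after ASIV (-1.29 ± 0.18), and Jund stood at -0.90 ± 0.16. Sik1, a kinase induced by cyclic AMP, was 2.05, 1.52 and 2.17 and 4.23, 9.34 and 4.22 FPKM (1.18 ± 0.25), and Klf4 stood at 1.17 ± 0.20. The second treated library was the highest for Sik1, and for Fosb it was far above the rest, with 2.19, 2.06 and 1.77 FPKM in vehicle and 2.46, 9.66 and 1.75 after ASIV. Without it 2 members were higher and 6 lower and the median was -0.21, and without the third treated library 6 were higher.

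MHC class I and peptide loading genes had 7 of 17 lower (41.2%, beside 15.4% of all genes) and 1 higher (5.88%, beside 13.7%). The median was -0.31, and over nuclear genes 1 was lower and 1 higher. B2m, the shared light chain of class I molecules, was the higher one, from 29, 21.8 and 21.9 FPKM to 48.6, 62.1 and 80.8 (1.34 ± 0.16, adjusted p = 0.000214). Its direction was opposite to Tap2 (-0.57 ± 0.11), which moves peptides into the endoplasmic reticulum, to Tapbp (-0.45 ± 0.13) and to the heavy chain genes H2-T23 (-0.54 ± 0.15) and H2-Q4 (-0.46 ± 0.16). Heavy chain genes differ in sequence between the strains and resemble each other, which can affect their counts. H2-T23 lost its call without the first or the third vehicle library or the third treated one. The lower calls were 3 without the third vehicle or first treated library and 4 without the first vehicle, second treated or second C57 vehicle library. Of 21 interferon-induced genes 1 rose (Ifitm3, 0.82 ± 0.18) and 3 fell, among them Ifi27 (28.7, 36.9 and 34.1 FPKM in vehicle, 18.9, 21.8 and 18.9 after ASIV, -0.71 ± 0.11). Of 19 chemokine and cytokine genes 6 rose (31.6%, beside 13.7% of all genes) and 3 fell (15.8%, beside 15.4%). Mif, a cytokine made by many cells, was 57.6, 42.1 and 54 FPKM in vehicle and 136, 142 and 134 after ASIV (1.42 ± 0.14, adjusted p = 7.55e-05), Tgfb3 stood at 0.75 ± 0.16, and Cxcl12 fell (-0.50 ± 0.13). The higher calls were 2 without the third vehicle or second treated library and 3 without the second vehicle or the third treated library.

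Chromatin and transcription regulators linked to autism risk had 10 of 39 higher (25.6%, beside 13.7% of all genes) and 2 lower (5.13%, beside 15.4%). The median was 0.11 (13 higher and 0 lower over nuclear genes alone). The lower calls were 0 or 1 without the first or the third vehicle library or the second or the third treated one. Arid1b, a subunit of a chromatin remodeller, was 4.63, 4.99 and 4.11 FPKM in vehicle and 7.33, 7.45 and 7.96 after ASIV (0.62 ± 0.09), Kmt2e stood at 0.64 ± 0.12 and Smarcc2 at 0.59 ± 0.09. The differences were smaller than those of ribosomal or mitochondrial genes, and the libraries did not overlap for these 3. Of 16 histone genes 4 rose and 3 fell (6 higher and 2 lower over nuclear genes alone), with Hist3h2ba from 9.9, 7.53 and 8.06 FPKM to 25.7, 22.7 and 24.5 (1.42 ± 0.13), H3f3a at 1.26 ± 0.18 and the linker histone Hist1h1c at -0.95 ± 0.21. H3f3a has close copies in the genome, which leaves its value uncertain.

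Of 655 genes classed as long noncoding RNA in GENCODE M21, 51 rose (7.79%) and 86 fell (13.1%). These shares lie below those of protein-coding genes (1655 and 1907 of 12139, or 13.6 and 15.7%). The class is that of the annotation and was not checked for single genes, Spata5l1 among them. Dlx6os1, expressed by interneurons beside the Dlx genes, was 2.39, 3.01 and 1.33 FPKM in vehicle and 4.1, 5.88 and 6.16 after ASIV (1.0 ± 0.21). Epb41l4aos, a host gene of small nucleolar RNAs, fell from 57.5, 47.6 and 80.7 FPKM to 23, 16.1 and 32.6 (-1.36 ± 0.24), and Rab10os from 14.4, 14 and 15.5 to 6.98, 5.53 and 6.49 (-1.09 ± 0.10). The groups did not overlap for these 3. Zfp652os (0.95 ± 0.20), AI504432 (0.64 ± 0.13) and AW047730 (0.62 ± 0.12) were the other higher ones by size, and Spata5l1 (-1.10 ± 0.13) and AC026385.1 (-1.07 ± 0.18) the other lower ones. Several of these lie antisense to or beside a coding gene, whose fragments cannot be told from theirs without the strand of counting. Of 17 well-known long noncoding RNAs 2 rose and 1 fell, with 3 lower without the second vehicle library and 4 lower without the first treated one.

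The share of genes called differed by level, length and base composition. In the quintile of genes with the highest level in BTBR, 28.8% were called lower and 12.4% higher, and in the lowest quintile 4.54% and 10.8%. Shorter genes were called lower more often, 19.1% in the quintile with the shortest exon length against 7.93% in the longest, while higher calls went from 15.9 to 12.4%. By GC content, lower calls rose from 10.6% in the quintile with the least to 21.2% in that with the most, and the median difference went from 0.04 to -0.09. In C57, where no gene was called, the medians of the same GC quintiles went from 0.07 to -0.07. The part of length, level and GC in the counts of the lists was not tested.

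Not all abundant genes changed. For 1999 genes the 95% confidence interval of the difference lay within 0.32 of no change on the log2 scale. The 5 with the narrowest interval at 50 FPKM or more were Dlg4, the postsynaptic scaffold PSD-95, Ap2a1, an adaptor of endocytosis, Sdha of succinate dehydrogenase, Ank, a membrane transporter, and Chmp4b, a membrane-remodelling protein. Dlg4 was 68.9, 64.3 and 71.9 FPKM in vehicle and 73.3, 75.4 and 74 after ASIV (0.12 ± 0.08, interval -0.05 to 0.29), and Sdha was 83.3, 82.6 and 80.9 and 83, 90 and 90.9 (0.09 ± 0.08, interval -0.08 to 0.27). Their libraries lay within a narrow band, although the interval of Dlg4 does not exclude a small rise, and over nuclear genes alone Dlg4, Sdha and Ank were called higher.

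The strains were set side by side for genes leading the groups above, chosen by their BTBR difference, which is part of the test. The response differed between them for Pcp4 (BTBR 1.83 ± 0.21, C57 0.07 ± 0.21, adjusted p of the difference 0.00371), for Pvalb (-1.69 ± 0.21 and 0.01 ± 0.21, 0.00423) and for P2ry12 (1.65 ± 0.16 and -0.23 ± 0.16, 0.000755). It also differed for Psmb2 (1.52 ± 0.15 and -0.01 ± 0.15, 0.00168), Pmvk (-0.92 ± 0.11 and 0.10 ± 0.11, 0.00204) and B2m (1.34 ± 0.16 and -0.09 ± 0.16, 0.00311). For others the test of the difference did not pass, as for Mt2 (1.64 ± 0.37 and 0.01 ± 0.37, 0.0617), Mt1 (0.138), Mog (0.138), Hspa5 (0.0548), Sik1 (0.0952) and Dlx6os1 (0.118). A p above the threshold does not show that the strains responded alike.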

How the data were processed

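Total RNA of mPFC was sequenced from BTBR and C57 mice given ASIV or DMSO, 3 libraries per group, after Trizol extraction and standard Illumina preparation, per the labels' protocols. The deposited table gives FPKM per gene as computed by the authors. HISAT2 2.0.5 and mm10 are named in the submitters' processing notes; no counter, annotation, strand or filter is given in the sources used here, and these decide how fragments of similar or overlapping genes were shared. Of 17283 identifiers 17273 matched GENCODE M21 (10 did not), which gave symbols, positions and lengths. FPKM times exon length gave whole fragments within 0.02 for 97.6 to 97.9% of values under 50 fragments, and so the depth; intervals from depth cover counting error only.

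Genes with at least 1 FPKM in 3 of 12 libraries were fitted as log2(FPKM + 1), pseudocount 1, with 4 group means in limma 3.58.1 (R 4.3.3; eBayes with trend and robust options, Benjamini-Hochberg over 13586 genes, threshold 0.05). The fit shares its spread over all 12 libraries. Camk2n2 also had an exact permutation test. Python 3.11.15 prepared tables and plots, and promoters came from RefSeq GRCm38.p6. The fit was tested on simulated data. Replicates differed beyond counting error (mean chi-square per gene 7.73 to 43.2).

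Members and gene lists were chosen with earlier results of these data known. Named genes were the 10 higher and 10 lower nuclear protein-coding genes with the smallest p (called, at least 1.5-fold, no overlap, mean of at least 5 FPKM), up to 3 called members per list by size (else the smallest p), 4 higher and 4 lower long noncoding RNAs by size, Camk2n2, Camk2n1, Camk2a, Camk2b, Itpr3, the 13 mitochondrial mRNAs and 5 steady genes. Further list members are named in the text by the role they have, after their values were seen. A few genes are not reported here and enter only counts and medians. Lists are described by counts and medians, without a set test. Alternatives covered pseudocount, filter, scaling, samples in the fit, spread per group, a replicate block, voom and leaving out each library.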

Additional observations from a re-analysis of the deposited data

Results flagged for a closer look

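The response to ASIV differed between BTBR and C57, by the interaction term of the limma fit (Benjamini-Hochberg adjusted p under 0.05), for 1939 genes. Groups of 3 libraries were not tested for single outlying libraries. Of the 37 genes named by p or fixed, 33 were in this set. Those named by p were picked by their difference in BTBR, which is a part of the interaction, so this count is not separate evidence. The values that follow are the response in BTBR minus that in C57, on the log2(FPKM + 1) scale.

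Nuclear genes with a higher response in BTBR were Srr (1.19), Syn1 (1.44), Praf2 (1.94), Dad1 (1.33), Yif1b (1.46), Nr1d1 (1.48), Atp5g2 (2.79), Agpat1 (1.38), Prrt1 (1.52) and Camk2a (0.93). Those with a lower response in BTBR were Msrb2 (-1.07), Cabp1 (-1.0), Dpm3 (-1.37), Phf5a (-1.39), Coprs (-0.98), Mrfap1 (-1.27), Sart1 (-1.0), Stmn3 (-1.56), Dohh (-1.23) and Atp5e (-1.24).

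All 13 mitochondrial mRNAs responded more in BTBR: mt-Nd1 (3.96), mt-Nd2 (4.14), mt-Nd3 (2.69), mt-Nd4 (4.17), mt-Nd4l (4.53), mt-Nd5 (2.28), mt-Nd6 (1.26), mt-Cytb (4.13), mt-Co1 (2.88), mt-Co2 (2.51), mt-Co3 (4.37), mt-Atp6 (4.65) and mt-Atp8 (2.28). The adjusted p was largest for mt-Atp8 (0.0395) and mt-Nd4l (0.0354).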

How the results depend on the processing

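Of 152 genes named by rule, 142 were called, and none of these 142 reversed its direction under any alternative run. Named genes that were not called and lie near no change, such as Camk2b, are not covered by this. Nor are the further genes named in the text after their values were seen. With the 6 BTBR libraries only, 2258 genes were called (1111 higher, 1147 lower), 2230 of them among the 3954. Scaling over nuclear genes gave 3056 higher and 1103 lower, and the planned scaling without mitochondrial genes gave 2165 and 1763. Leaving out 1 library gave 3071 to 4038 calls in BTBR, 0 to 1 in C57 and 1166 to 2178 for the difference between strains, the lowest without the second C57 vehicle library. Camk2n2 ranged from -0.64 to -0.25 when 1 library was left out (adjusted p 0.0213 to 0.172). It passed with a minimum of 5 FPKM (-0.49, adjusted p = 0.0405) and with voom (-0.50, adjusted p = 0.0395). It did not pass with quantile scaling (-0.35, adjusted p = 0.15) or over nuclear genes (-0.34, adjusted p = 0.157). Without mitochondrial genes in the scale it stood at -0.45 (adjusted p = 0.0732). The adjusted p was 0.132 with the 6 BTBR libraries only and 0.073 with the spread per group. The cause of these differences between runs was not tested. Deviations of same-numbered BTBR libraries correlated at 0.207, 0.279 and -0.0438. With 3 libraries per group these values cannot settle whether the numbers pair the libraries, which the labels do not say. With a replicate block 4013 genes were called in BTBR and 0 in C57, the difference between strains was called for 1862, and Camk2n2 stood at -0.49 (adjusted p = 0.0443). Of the 142 called, 13 lost the call with 6 libraries only, 14 with the spread per group, 15 without the third BTBR ASIV library and 10 without the third BTBR vehicle library. Depth limits genes near the minimum: 1 fragment on 1 kb is 0.0536 to 0.0619 FPKM.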

Other observations

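A few genes were high in 1 library alone. Cela1, a serine protease gene, was 0.503, 0.381 and 50.7 FPKM in BTBR vehicle and 0.73, 0.503 and 0.586 in BTBR ASIV, and 1.58, 1.03 and 1.17 in C57 vehicle. Ttr, a choroid plexus and liver transport protein, was 0.907, 5.81 and 0.863 FPKM in BTBR vehicle and 9.13, 1.86 and 0.577 in BTBR ASIV. Bdnf, the activity-dependent growth factor, was 2.2, 3 and 1.64 FPKM in vehicle and 1.69, 5.68 and 0.957 after ASIV in BTBR, highest in the second treated library, which was also the highest for Fosb.

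Striatal output genes followed 1 pattern over the libraries. Ppp1r1b, the dopamine-regulated phosphatase inhibitor DARPP-32, was 77.4, 72.5 and 42.4 FPKM in BTBR vehicle and 108, 24.8 and 164 in BTBR ASIV, and Scn4b, a sodium channel subunit, was 28.2, 31.6 and 10.9 and 27.5, 6.23 and 37. The third vehicle and second treated libraries were again the lowest of their groups. These genes were named after their values were seen, and no explanation was tested.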
